A study of Mus musculus with 6 samples.

Results

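The 10 genes described here encode receptors and cofactors by which innate immune cells sense microbial products and debris of damaged cells: the Toll-like receptors Tlr1, Tlr2, Tlr4, Tlr6 and Tlr13, the co-receptor Cd14, the receptor Cd180, the small secreted partners Ly96 (MD-2) and Ly86 (MD-1), and the adaptor Myd88. They were chosen by symbol, with earlier results of these data known, and each matched 1 line among the 38207 genes and loci of the deposited count table. The data were read counts from nanopore cDNA sequencing of microglia, the resident macrophages of the brain, from wild-type mice. Libraries labelled tMCAO, which usually stands for a temporary block of the middle cerebral artery used to model stroke, were compared with sham libraries, 3 of each, and every library pooled 30 mice. The age and sex of the mice, the time after surgery and the method of cell isolation are not given in the sources read, and the extraction protocol speaks of tissue.

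Toll-like receptors are horseshoe-shaped transmembrane proteins that signal as dimers. TLR2 pairs with TLR1 or TLR6 to bind bacterial lipoproteins, while TLR4 binds lipopolysaccharide only when MD-2 sits in its ectodomain, with CD14 handing over the ligand. CD180 is a TLR4 relative without a signalling domain that needs MD-1 to reach the surface, and TLR13, which recognises bacterial ribosomal RNA, works in endosomes although it is grouped here with the surface receptors. Most of these receptors pass their signal to MyD88, which assembles IRAK kinases and turns on NF-kB. In brain, microglia are a main site of these receptors, and they have been studied there as sensors of proteins released by dying cells.

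Total counts ran from 1855495 to 2614512 per library, so that 1 count equals 0.382 to 0.539 CPM (counts scaled to the same total in every library). Levels are given as CPM, with the mean ± SD of the 3 libraries of a group. Fold changes are log2 values of tMCAO against sham with their standard error (SE) from edgeR, and a gene is called changed when the adjusted p of edgeR's quasi-likelihood test over all 13127 tested genes is under 0.05. The fit also used a scaling factor per library (TMM), 0.920 to 0.987 in sham and 0.979 to 1.07 in tMCAO. Fold changes can therefore differ from ratios of the CPM means, which lack this factor. The microglial genes P2ry12, an ADP receptor, and Csf1r, the receptor for a microglial growth factor, were abundant in both groups, with group means of 2300 to 3562 CPM. Among 13127 tested genes, 18.1% were called changed, 9.17% higher and 8.96% lower. On the second principal component, tMCAO 3 (73.9) lay apart from tMCAO 1 (-43.3) and tMCAO 2 (-38.0), so the calls among the 10 genes are also given without this library.

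Of the 10 genes, 4 rose after tMCAO (Tlr2, Cd180, Tlr13 and Cd14), 0 fell and 6 did not pass the test. All 10 passed the filter on low counts. Against the 9.17% of all tested genes that were called higher, this was 4 of 10, and the median log2 fold change of the 10 genes was 0.21, against 0 over all tested genes. Because the 10 genes were chosen with earlier results of these data known, this comparison is a description and not a test. At an unadjusted p under 0.05, 1 more gene, Tlr6, was lower in edgeR's test. DESeq2 and limma voom also called 4 higher and 0 lower. The 3 tMCAO libraries lay above all 3 sham libraries for 5 of the 10 genes, the 4 called genes and Myd88, and 23.3% of all tested genes were separated in this direction. In bulk libraries, more RNA of a gene per cell and more cells of a type that carries it cannot be told apart. Without tMCAO 3, the log2 fold change was 1.98 for Tlr2, 1.31 for Cd180, 1.28 for Tlr13 and 0.66 for Cd14, and edgeR called the same 4 genes. The plot of levels by library shows every value.

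**Figure D1:**
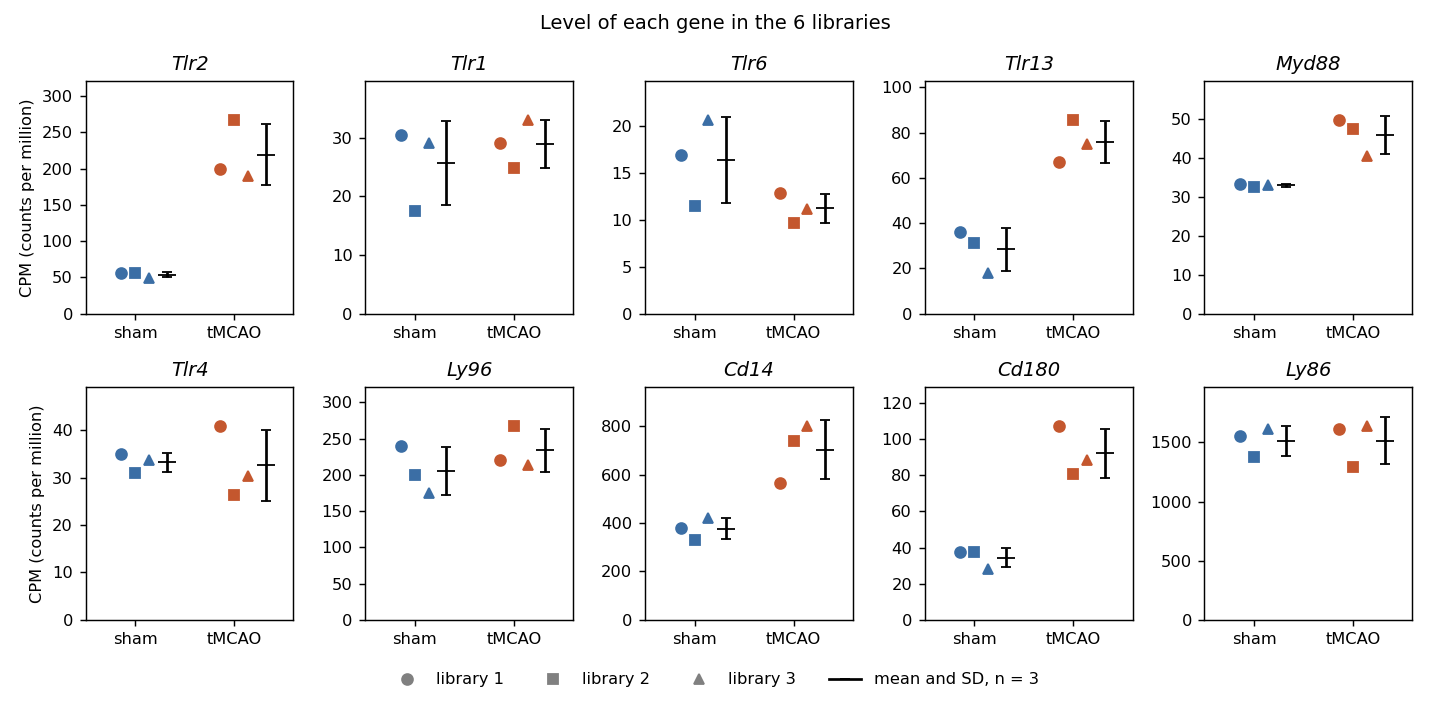
Level of each of the 10 genes in CPM (y axis, linear, from 0) in the 3 sham and the 3 tMCAO libraries (x axis). Symbols mark library numbers, and bars give the mean and SD of 3 libraries. Tlr2, Tlr13, Cd180, Cd14 and Myd88 have no overlap between the groups, while Tlr1, Tlr6, Tlr4, Ly96 and Ly86 overlap.

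Tlr2 (ENSMUSG00000027995), the shared chain of the lipoprotein receptors, moved most. Its level was 55.7, 56.7 and 49.3 CPM in sham libraries 1 to 3 and 200, 267 and 190 CPM in tMCAO libraries 1 to 3. The sham libraries lay within a narrow range, and the lowest tMCAO library was far above the highest of them. Its log2 fold change was 1.897 ± 0.18, a fold of 3.72 with a 95% interval of 2.85 to 4.87 (edgeR adjusted p = 2.9e-05), and 36 of the 13127 tested genes had a smaller p. With 1 library left out the value stayed between 1.77 and 1.99. For 3 genes the profile over the 6 libraries was most like that of Tlr2, by the root mean square difference of centred log2(CPM + 1) over 5170 candidate genes. They were Tmem104 (0.157), Sdc3 (0.176), a cell-surface proteoglycan, and Actn4 (0.188), an actin cross-linker.

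The promoter of Tlr2 is shown because this gene had the largest change and because its upstream bases hold matches to the NF-kB site. The window runs from 250 bases before to 30 bases after the RefSeq start site, at chr3:83841579-83841858 of GRCm38.p6 on the minus strand, and capitals mark matches to the kappaB consensus.
Tlr2: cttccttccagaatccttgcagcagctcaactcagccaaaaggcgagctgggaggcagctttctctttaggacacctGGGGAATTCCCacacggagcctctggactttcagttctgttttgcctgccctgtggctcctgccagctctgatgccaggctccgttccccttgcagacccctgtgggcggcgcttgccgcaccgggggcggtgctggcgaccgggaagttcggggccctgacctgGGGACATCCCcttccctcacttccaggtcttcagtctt
The capitals begin at base -173 from the start site, where 2 overlapping matches lie, and at base -8. Of 32851 promoters in the RefSeq table, searched over 300 bases on both strands, 8.46% held this consensus. None of the other motifs searched was in the Tlr2 window: GGANNTTCC, a shorter kappaB form (4.26% of all promoters), GAAANNGAA, an interferon response form (8.56%), TGANTCA, the AP-1 site (7.81%), and GAGGAAG, the PU.1 core (13.6%). The consensus was added to the search after the promoters were seen. A match describes the letters and not a bound site. Promoters were matched for 7 of the 10 genes.

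The dimer partners of TLR2 did not pass the test. Tlr1 (ENSMUSG00000044827) had 30.4, 17.4 and 29.1 CPM in sham 1 to 3 and 29.1, 24.8 and 33.0 CPM in tMCAO 1 to 3. The groups overlap, with sham 2 below every tMCAO library and tMCAO 3 above every sham library. Its log2 fold change was 0.07 ± 0.25, with a 95% interval of -0.47 to 0.61 (edgeR adjusted p = 0.88). Tlr6 (ENSMUSG00000051498) had 16.9, 11.5 and 20.7 CPM in sham and 12.8, 9.70 and 11.2 CPM in tMCAO. Its libraries overlap through sham 2, and its counts were the lowest of the 10 genes, at 18 to 54 per library. On the log2 scale the change was -0.65 ± 0.29 (interval -1.28 to -0.02), with an edgeR p of 0.0445 before adjustment and an edgeR adjusted p = 0.143.

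Tlr1 and Tlr6 are close copies that neighbour each other on chromosome 5 in RefSeq. The longest open reading frames of their GENCODE M21 transcripts matched at 73.5% of aligned bases, against 51.4% for Tlr1 and Tlr2, and their transcripts shared an identical stretch of 229 bases. No source used here says how reads were divided between such genes, so the separate values of Tlr1 and Tlr6 are uncertain. Summed, they held 42.0 ± 11.4 CPM in sham and 40.2 ± 5.07 CPM in tMCAO (log2 fold change -0.17 ± 0.23, edgeR adjusted p = 0.651), a sum chosen after seeing the data.

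Because both chains are counted in the same library, the ratio of their counts does not depend on scaling. There were 0.547, 0.310 and 0.591 Tlr1 counts per Tlr2 count in sham 1 to 3 and 0.146, 0.0937 and 0.175 in tMCAO 1 to 3. For Tlr6 per Tlr2 these ratios were 0.306, 0.206 and 0.421 in sham and 0.0652, 0.0373 and 0.0603 in tMCAO. Every tMCAO library was below every sham library in both ratios. Both hold the same Tlr2 counts, so they are not separate from each other or from the rise of Tlr2. The ratios of Cd14 to Tlr4 and of Ly86 to Cd180 below likewise hold counts of a gene called higher. The log2 ratio changed by -1.79 for Tlr1 per Tlr2 and by -2.50 for Tlr6 per Tlr2. By an exact two-sided permutation over libraries, p was 0.1 for both (0.12 adjusted over the 6 gene pairs compared), the smallest value that 3 libraries against 3 allow. With Tlr1 and Tlr6 summed, the log2 ratio to Tlr2 changed by -2.03 (exact permutation p = 0.1).

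**Figure D2:**
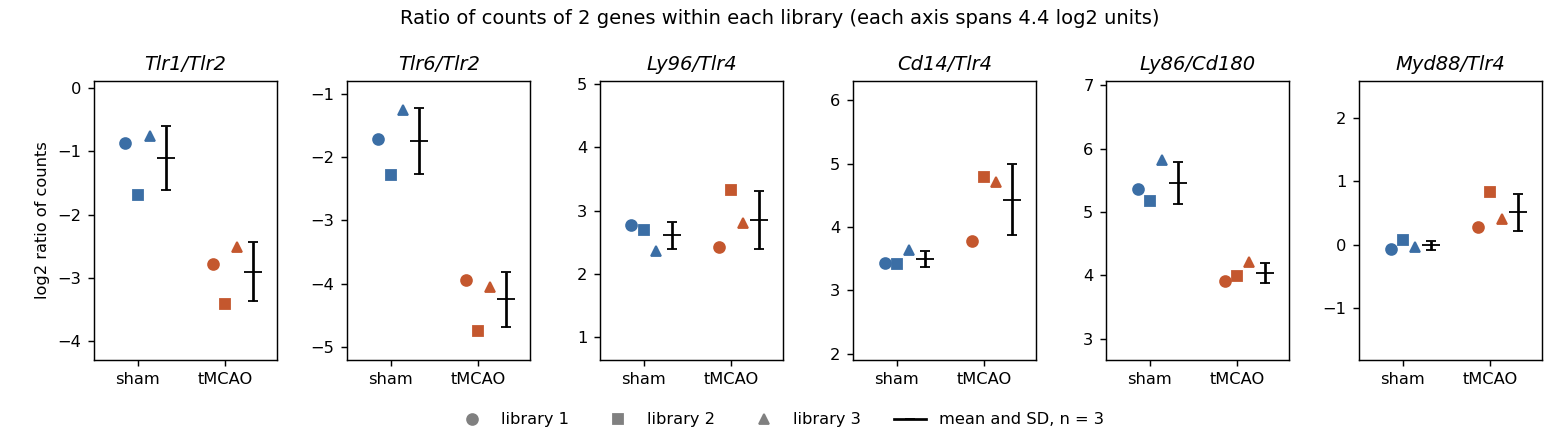
Log2 ratio of the counts (0.5 added to each) of 2 genes in the same library (y axis, each panel spanning the same number of log2 units) for 6 gene pairs, in sham and tMCAO libraries (x axis). Bars give the mean and SD of 3 libraries. Tlr1/Tlr2, Tlr6/Tlr2 and Ly86/Cd180 are lower in every tMCAO library, Cd14/Tlr4 and Myd88/Tlr4 are higher, and Ly96/Tlr4 overlaps.

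In the lipopolysaccharide receptor, the co-receptor rose and the receptor with its bound partner did not pass the test. Tlr4 (ENSMUSG00000039005), the signalling chain, had 35.0, 30.9 and 33.7 CPM in sham 1 to 3 and 40.9, 26.4 and 30.4 CPM in tMCAO 1 to 3. The tMCAO libraries lay on both sides of the sham libraries, and the log2 fold change was -0.14 ± 0.21 (95% interval -0.61 to 0.32, edgeR adjusted p = 0.684). Ly96 (ENSMUSG00000025779), which encodes MD-2, had 240, 200 and 175 CPM in sham and 220, 267 and 213 CPM in tMCAO. These libraries overlapped too, at a log2 fold change of 0.07 ± 0.17 (interval -0.30 to 0.43, adjusted p = 0.823). For Tlr4 the interval leaves room for folds from 0.657 to 1.25, and for Ly96 from 0.815 to 1.35.

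Cd14 (ENSMUSG00000051439), the membrane-anchored carrier of lipopolysaccharide that also serves TLR2, had 379, 332 and 421 CPM in sham 1 to 3. In tMCAO 1 to 3 it had 566, 740 and 801 CPM. All tMCAO libraries were above the sham range, and tMCAO 1 was the lowest of them. The log2 fold change was 0.79 ± 0.17, a fold of 1.73 with a 95% interval of 1.34 to 2.23 (edgeR adjusted p = 0.00706). Without tMCAO 3, where Cd14 was highest, it was 0.66 (adjusted p = 0.00979, edgeR), within a range of 8.78e-07 to 0.0498 over the alternatives. Per Tlr4 count there were 10.8, 10.7 and 12.4 Cd14 counts in sham and 13.8, 27.7 and 26.2 in tMCAO. This ratio differed by 0.94 on the log2 scale (two-sided exact permutation p = 0.1, 0.12 adjusted), while Ly96 per Tlr4 differed by 0.24 (p = 0.4, 0.4 adjusted) with overlapping libraries.

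The pair of CD180 and MD-1 split in the same comparison. Cd180 (ENSMUSG00000021624) had 37.5, 37.7 and 28.3 CPM in sham 1 to 3 and 107, 80.8 and 88.4 CPM in tMCAO 1 to 3. Each tMCAO library was far above the highest sham library. A log2 fold change of 1.30 ± 0.20 was estimated, a fold of 2.46 with an interval of 1.83 to 3.30 (edgeR adjusted p = 0.000852), and it stayed between 1.14 and 1.42 with 1 library left out. Ly86 (ENSMUSG00000021423), which encodes MD-1, had 1550, 1373 and 1617 CPM in sham and 1617, 1288 and 1639 CPM in tMCAO. The groups coincided, with library 2 lowest in each, and the log2 fold change was -0.11 ± 0.14 (95% interval -0.42 to 0.20, adjusted p = 0.641). At 2390 to 4227 counts per library, Ly86 was the most deeply counted of the 10 genes, and its interval covers folds from 0.746 to 1.15. Ly86 counts per Cd180 count were 41.1, 36.3 and 56.7 in sham and 15.03, 15.9 and 18.5 in tMCAO, a difference of -1.42 on the log2 scale (two-sided exact permutation p = 0.1, 0.12 adjusted).

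Tlr13 (ENSMUSG00000033777), the endosomal sensor of bacterial ribosomal RNA, had 36.3, 31.3 and 17.98 CPM in sham 1 to 3 and 67.0, 85.7 and 75.1 CPM in tMCAO 1 to 3. Sham 3 was the lowest library, and no tMCAO library came down to the sham range. Its log2 fold change was 1.29 ± 0.25, a fold of 2.45 with an interval of 1.69 to 3.55 (edgeR adjusted p = 0.00376), and between 1.02 (without sham 3) and 1.47 with 1 library left out. The Tlr13 promoter, at chrX:106143025-106143304 of GRCm38.p6 on the plus strand, is shown for comparison with that of Tlr2: it held no kappaB match and 1 match to the PU.1 core GAGGAAG, in capitals, at base -83.
Tlr13: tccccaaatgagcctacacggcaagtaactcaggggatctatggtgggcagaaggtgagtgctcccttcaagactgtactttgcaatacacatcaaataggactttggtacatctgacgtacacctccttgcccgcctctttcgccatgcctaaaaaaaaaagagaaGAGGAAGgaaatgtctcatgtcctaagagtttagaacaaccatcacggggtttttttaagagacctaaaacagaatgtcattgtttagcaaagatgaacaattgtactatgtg
The PU.1 core was also in 1 of the Tlr1 promoters, at base -23. Whether a match bears on the level of a gene was not tested. Both Cd180 promoters in the table held none of the motifs searched.

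Myd88 (ENSMUSG00000032508), the adaptor that most of these receptors share, had 33.3, 32.5 and 32.9 CPM in sham 1 to 3 and 49.7, 47.4 and 40.5 CPM in tMCAO 1 to 3. The sham libraries agreed closely, and every tMCAO library was above them. Its log2 fold change of 0.36 ± 0.18 (95% interval -0.04 to 0.75) did not pass edgeR's test (edgeR adjusted p = 0.198), nor did it under any of the 16 alternatives (adjusted p 0.0976 to 0.385). Myd88 per Tlr4 was 0.952, 1.05 and 0.977 in sham and 1.22, 1.79 and 1.33 in tMCAO (two-sided exact permutation p = 0.1, 0.12 adjusted). The Myd88 promoter, at chr9:119339989-119340268 of GRCm38.p6 on the minus strand, is shown because it was the 1 window among those matched with both an interferon response match, at base -40, and a match to the shorter kappaB form, at base 5.
Myd88: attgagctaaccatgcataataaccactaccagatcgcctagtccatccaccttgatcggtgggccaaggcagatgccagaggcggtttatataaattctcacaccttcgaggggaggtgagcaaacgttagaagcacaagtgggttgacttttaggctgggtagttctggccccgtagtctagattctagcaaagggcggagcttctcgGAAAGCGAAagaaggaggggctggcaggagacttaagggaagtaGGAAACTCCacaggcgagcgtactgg
Capitals mark these 2 matches. Among the other windows, 1 of the Tlr6 promoters held overlapping interferon response matches at bases -115 and -109, and Ly86 held 1 at base 1.

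**Figure D3:**
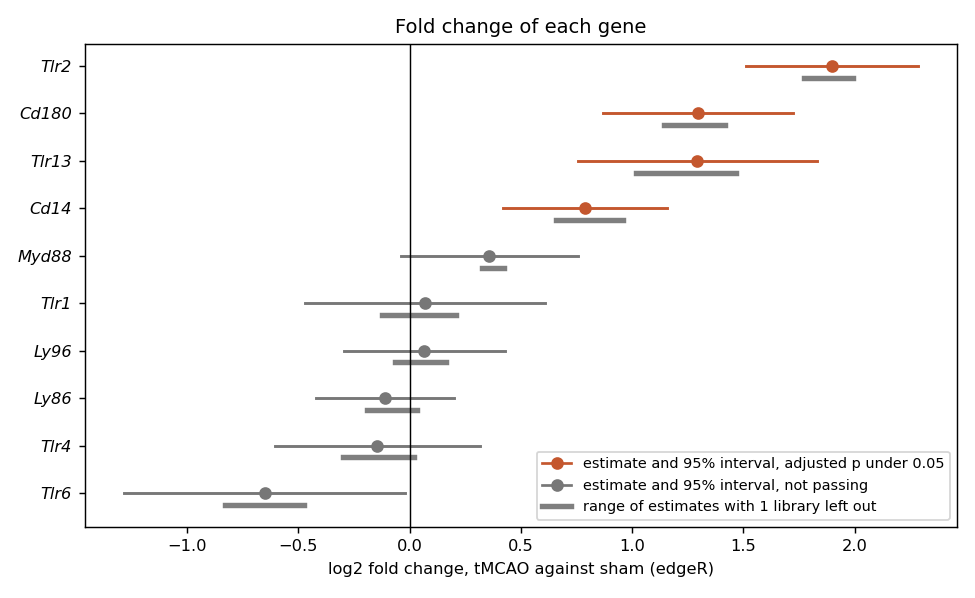
Log2 fold change of tMCAO against sham (x axis) for each of the 10 genes (y axis), with 95% intervals from edgeR. Grey bars below each point span the estimates with 1 library left out in turn. Tlr2, Cd180, Tlr13 and Cd14 stay above 0 throughout, and the bars of Tlr1, Ly96, Ly86 and Tlr4 cross 0.

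Other cell types also carry these receptors, so marker genes of those cells were read in the same libraries. Calls in each marker list stand beside 9.17% of all tested genes called higher and 8.96% called lower. Of 8 monocyte markers, 5 rose and 0 fell, and their summed level was 95.6 to 112 CPM in sham and 175 to 365 CPM in tMCAO, highest in tMCAO 1. F13a1, a coagulation factor subunit of monocytes and macrophages, went from 19.4 ± 6.28 to 69.0 ± 5.76 CPM, while Chil3 had 56.7 ± 7.41 and 54.8 ± 45.0 CPM. Of 8 border-associated macrophage markers, 4 rose and 0 fell (sums of 174 to 223 and 350 to 479 CPM, highest in tMCAO 3). Ms4a7 went from 27.5 ± 1.94 to 119 ± 76.9 CPM, a call (edgeR adjusted p = 0.0479) lost in 8 of the 16 alternatives, among them limma voom and leaving out any 1 sham library or tMCAO 2 (1.99e-06 to 0.147 over the alternatives), and Pf4 had 79.0 ± 7.78 and 119 ± 30.2 CPM (adjusted p = 0.12). Cbr2, another abundant marker of this list, went the other way, with 37.8 ± 8.84 CPM in sham and 25.6 ± 9.09 in tMCAO (log2 fold change -0.68 ± 0.26, edgeR adjusted p = 0.0852, and 0.0338 to 0.292 over the alternatives, the lowest without tMCAO 1). None of the markers in either list was at 0 in a whole group. Tlr2 and Tlr13 were highest in tMCAO 2, Cd14 in tMCAO 3 and Cd180 in tMCAO 1. The part of these cells in the rises of Tlr2, Cd14, Tlr13 and Cd180 was not tested.

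Neutrophils carry Cd14, Tlr2 and Tlr13 as well. Of 10 neutrophil markers, 1 fell and 0 rose, with sums of 1888 to 2375 CPM in sham and 543 to 1927 CPM in tMCAO, lowest in tMCAO 2. S100a8, a neutrophil alarmin, had 1040 ± 160 CPM in sham and 505 ± 347 in tMCAO (edgeR adjusted p = 0.24, and 0.0306 to 0.53 over the alternatives), and its partner S100a9 had 368 ± 68.4 and 208 ± 151 CPM. B cells carry Cd180 and Ly86. Of 6 B cell markers, 5 matched the table, and their sums were 29.5 to 38.4 CPM in sham and 18.9 to 36.2 CPM in tMCAO, where no sum exceeded the highest sham sum. Most of this came from Cd79b (29.9 ± 2.47 and 28.0 ± 8.85 CPM), and Cd79a held 10, 13 and 4 counts in sham and 0, 1 and 0 in tMCAO. The 10 microglial markers summed to 27649 to 28207 CPM in sham and 24197 to 27459 CPM in tMCAO. Of these, 4 fell and 0 rose. P2ry12 fell from 3562 ± 302 to 2300 ± 352 CPM, and Csf1r had 2438 ± 404 and 3424 ± 870 CPM (edgeR adjusted p = 0.21, and 0.0121 to 0.489 over the alternatives).

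Erythroid and astrocyte markers summed to less in every tMCAO library than in any sham library. Summed erythroid markers were 955 to 6040 CPM in sham and 215 to 380 CPM in tMCAO, with no overlap for any of the 5 genes, although none of the 3 tested passed edgeR's test. Of all tested genes, 14.6% were separated in this direction. Among the 3 tested erythroid genes, the globin gene Hba-a2 had 1829 ± 1418 and 174 ± 47.9 CPM (edgeR adjusted p = 0.059). Below the filter were Hba-a1, with 2 to 29 counts in sham and 0 to 1 in tMCAO, and Alas2, with 8 to 34 and 2 to 4. Astrocyte markers summed to 136 to 406 CPM in sham and 63.0 to 88.4 CPM in tMCAO, and 2 of 4 tested fell, the glutamate transporter Slc1a2 and the glycolytic enzyme Aldoc. Choroid plexus markers, among which Ttr, a carrier of thyroid hormone, was the most abundant, summed to 8631 to 44632 CPM in sham and 2271 to 9965 CPM in tMCAO, and 1 of 6 fell, the channel-like gene Clic6. Hba-a2, Slc1a2, Aldoc, Ttr and Clic6 were picked out after their values were seen. Endothelial markers summed to 96.6 to 141 CPM in sham and 74.4 to 206 CPM in tMCAO, and dendritic cell markers to 4.59 to 9.28 and 18.1 to 21.2 CPM. The part of these shifts in the levels of the 10 genes was not tested.

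The other Toll-like receptors did not pass the test. For this list and those below, the shares over all tested genes were 9.17% called higher and 8.96% lower. Of 7 genes, 3 were counted deeply enough to test (Tlr3, Tlr7 and Tlr12), and 0 were called by edgeR, DESeq2 or limma voom, with 1 higher at an unadjusted p under 0.05 in edgeR's test. That was Tlr7, the endosomal sensor of single-stranded RNA, at 67.4 ± 16.5 CPM in sham and 101 ± 25.7 in tMCAO (log2 fold change 0.48 ± 0.22, edgeR adjusted p = 0.148). Tlr12, a sensor of parasite profilin, had 13.6 ± 1.93 and 11.7 ± 2.25 CPM. The list's median was 0.07. Tlr5, Tlr8, Tlr9 and Tlr11 were below the filter, with group means of 0.127 to 1.89 CPM.

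Genes that fold, move and load the receptors were mixed: of 6 tested, 1 rose, 1 fell and 4 did not pass (median -0.28). Cd36, a scavenger receptor that presents lipids to TLR2 with TLR6, rose from 3.30 ± 1.91 to 23.2 ± 9.89 CPM (log2 fold change 2.69 ± 0.45, edgeR adjusted p = 0.00184). Cnpy3, a chaperone that several Toll-like receptors need to leave the endoplasmic reticulum, fell from 217 ± 12.9 to 167 ± 16.9 CPM (-0.50 ± 0.15, adjusted p = 0.0321). That call was lost in 11 of the 16 alternatives, among them DESeq2 and leaving out any 1 sham library, tMCAO 1 or tMCAO 2, and adjusted p ran from 0.0175 to 0.127 over the alternatives.

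Adaptors and kinases below the receptors mostly did not pass: of 20 listed genes 16 were tested, and 2 rose, 1 fell and 13 did not pass (median 0.34). Over all tested genes, 9.17% were called higher and 8.96% lower, so these counts are near the general share. Map3k8, the kinase that carries the signal to ERK, rose from 20.2 ± 1.84 to 56.3 ± 10.1 CPM (log2 fold change 1.35 ± 0.21, edgeR adjusted p = 0.000878). Tbk1, a kinase that activates interferon regulatory factors, rose from 24.5 ± 4.08 to 45.0 ± 6.96 CPM (0.76 ± 0.21, adjusted p = 0.0256). Peli1, a ubiquitin ligase of the IRAK complex, fell from 27.7 ± 1.20 to 16.2 ± 4.82 CPM (-0.90 ± 0.25, adjusted p = 0.0237). The call of Tbk1 was lost in 6 of the 16 alternatives, 4 of which left out 1 sham library or tMCAO 2 (0.0062 to 0.0878 over the alternatives), and that of Peli1 in 8, among them DESeq2 and leaving out any 1 sham library, tMCAO 2 or tMCAO 3 (0.0151 to 0.111).

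Of 15 inhibitors of the pathway, 9 were tested, and 4 rose, 0 fell and 5 did not pass (median 0.74). Nfkbia, which holds NF-kB in the cytoplasm, rose from 487 ± 137 to 1203 ± 220 CPM (log2 fold change 1.20 ± 0.21, edgeR adjusted p = 0.00308). Tnip1, a partner of the deubiquitinase A20, rose from 4.53 ± 0.289 to 18.9 ± 3.51 CPM (1.92 ± 0.31), and Zc3h12a, an RNase that degrades cytokine transcripts, from 6.81 ± 1.87 to 26.8 ± 8.26 CPM (1.84 ± 0.32). Dusp1, a phosphatase of MAP kinases, rose from 54.7 ± 7.20 to 105 ± 39.4 CPM (0.82 ± 0.23, adjusted p = 0.0275), a call lost in 7 alternatives, 5 of which left out 1 sham library, tMCAO 1 or tMCAO 2 (0.000128 to 0.113 over the alternatives).

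Endogenous ligands, proteins that these receptors are reported to sense after tissue damage, numbered 13, of which 10 were tested, with 2 higher, 1 lower and 7 not passing (median -0.15). The acute-phase gene Saa3 (serum amyloid) went up from 0.532 ± 0.226 to 42.2 ± 14.4 CPM (log2 fold change 6.04 ± 0.44), and Fn1, which encodes the matrix protein fibronectin and is also in the monocyte list, from 2.66 ± 0.594 to 58.1 ± 38.9 CPM (4.28 ± 0.65, edgeR adjusted p = 0.00628). Fn1 did not pass limma voom (0.08, the highest of its alternatives, which began at 9.91e-22). Hmgb1, a nuclear protein that acts as an alarm signal outside cells, fell from 889 ± 77.2 to 673 ± 63.6 CPM (-0.52 ± 0.14, adjusted p = 0.0236). That call was lost in 7 alternatives, among them DESeq2 and leaving out sham 1, sham 2 or tMCAO 2 (0.012 to 0.105 over the alternatives).

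Genes that Toll-like receptor signals are known to induce rose in most cases: of 19 listed, 17 were tested, and 14 rose, 0 fell and 3 did not pass (median 1.79). This list, like the others, was chosen with earlier results of these data known. Without tMCAO 3, 13 rose, without sham 1, 11 rose, and with sham 1 and tMCAO 3 both left out, 9 rose. The cytokine Tnf went from 112 ± 27.4 to 514 ± 63.3 CPM (log2 fold change 2.10 ± 0.19), and the chemokine Ccl5 from 18.9 ± 6.20 to 115 ± 27.1 CPM (2.48 ± 0.24). The neutrophil attractant Cxcl2 rose from 38.7 ± 7.62 to 182 ± 48.8 CPM (2.13 ± 0.23), and Ptgs2, the inducible prostaglandin synthase, from 12.01 ± 1.87 to 45.1 ± 6.77 CPM (1.79 ± 0.24). These genes also respond to other signals, and no receptor was blocked or removed here, so which signal they followed was not tested.

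**Figure D4:**
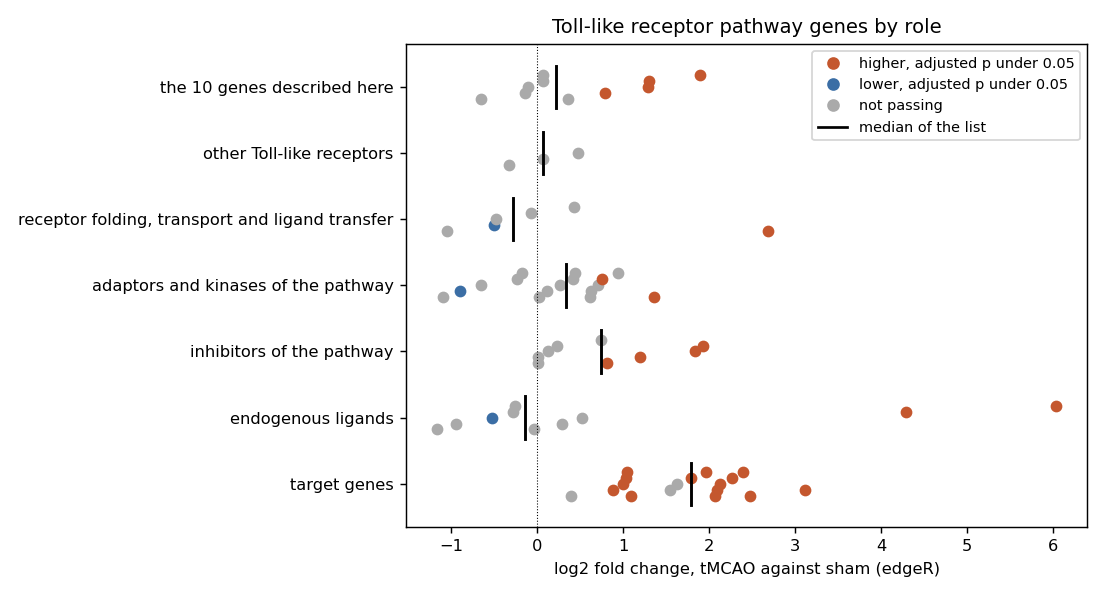
Log2 fold change of tMCAO against sham (x axis) of each tested gene, grouped by role (y axis), with small vertical offsets for legibility. Vertical bars give each list's median, which is highest for the target genes (1.79) and lowest for the genes of receptor folding, transport and ligand transfer (-0.28).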

How the data were processed

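Microglia of wild-type mice were profiled in 6 libraries, 3 sham and 3 tMCAO, each from 30 pooled mice. Groups and replicate numbers come from the sample titles. Whether pools were prepared apart is not said in the labels, so a p-value here reflects only how far these pools differ.

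TRIzol RNA was converted with Oxford Nanopore's cDNA-PCR kit, per the labels' protocols. The aligner minimap2 is named in the submitters' processing notes. Genome build, annotation, counting rule and strand use: not given in the sources used here. The deposited table holds raw read counts and CPM, per the file headers. Deposited CPM differed from values recomputed here with library totals by at most 4.87e-06. Of 38219 lines, 12 held no values and were left out.

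Counts were tested with edgeR 4.0.16 (R 4.3.3): filterByExpr (minimum count 10, minimum total 15), TMM scaling, robust quasi-likelihood F tests with group as the only term, and Benjamini-Hochberg adjustment. SE is the absolute log2 fold change divided by the square root of F. The biological coefficient of variation was 22.6%. The code was tested on simulated counts. Counts carry no molecular identifiers, so they are not independent molecules. Partner ratios used counts plus 0.5 and the two-sided exact permutation test.

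The members and lists were chosen with earlier results of these data known. Named genes are the 10 members, up to 4 called genes with the smallest p per pathway list (or 2 where none was called), the 2 most abundant markers per group of the microglia, monocyte, neutrophil, border-associated macrophage and B cell lists, and the 3 genes most like Tlr2. No member was called lower, so no second profile was sought. A marker chosen by this rule is not reported here. Marker lists of dendritic cells (6 genes, 1 higher), endothelial cells (6, none called), astrocytes (6, 2 lower), choroid plexus (6, 1 lower) and erythroid cells (5, none called) were also read, and their summed levels stand in the results. Promoters are from RefSeq (GRCm38.p6). Protein sequences planned for comparison were not used here, and open reading frames of GENCODE M21 transcripts took their place. Alternatives were other scalings, filters, DESeq2 1.42.0, limma 3.58.1, a replicate block, libraries left out and Ensembl genes only.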

Additional observations from a re-analysis of the deposited data

How the results depend on the processing

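The 4 calls among the 10 genes (Tlr2, Cd180, Tlr13 and Cd14) held under each of 16 other settings, with adjusted p at most 0.000699, 0.00691, 0.0194 and 0.0498, and no other member was called in any of them. The highest value for Cd14 was that with sham 1 and tMCAO 3 left out. Same-numbered sham and tMCAO libraries did not deviate together (correlations of -0.0883, -0.00091 and -0.0895). With 3 libraries per group, these correlations cannot decide whether such libraries were prepared together, and the labels do not say. With the replicate block, 1662 genes were called in place of 2380, the 4 members were called, and the exact sign-flip permutation test of a partner ratio could not go below p = 0.25. Among genes that were not called, the log2 fold change of 6 took both signs. For Tlr1 it was -0.001 with upper-quartile scaling, -0.1234 (without sham 2) to 0.2099 (without tMCAO 2) with 1 library left out, and -0.17 when summed with Tlr6, a sum chosen after seeing the data. For Ly96 it was -0.0026 with upper-quartile scaling and -0.0639 to 0.1636 with 1 library left out. With 1 library left out, Tlr4 ran from -0.2973 to 0.0197, Ly86 from -0.193 to 0.0322, Cd79b from -0.4363 to 0.0619 and Chil3 from -1.058 to 0.1758, and the log2 fold change of Chil3 was 0.1514 with 4 libraries. Of these, 1 value passed the test, that of Chil3 without tMCAO 1 (edgeR adjusted p = 0.0128). No partner ratio changed sign.

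Over all genes, 2380 calls became 4039 with no filter on low counts, 1573 with 4 libraries (sham 1 and tMCAO 3 left out), 1493 with Ensembl genes only, and 1254 (without sham 1) to 2590 (without tMCAO 3) with 1 library left out. Library totals alone gave 63.2% of calls higher and a median log2 fold change of 0.11, and upper-quartile scaling 42.2%, against 50.6%. In the list of folding, transport and ligand transfer, 2 genes were higher with library totals, with no filter and with at least 1 CPM in 3 libraries, and 0 were lower under these 3, DESeq2, the replicate block and 4 libraries (0 to 1 with 1 library left out). Of the adaptors and kinases, 5 were higher with no filter, 4 with at least 1 CPM in 3 libraries, and 1 with the replicate block and with 4 libraries (1 to 3 with 1 left out). In that list, 0 were lower with library totals, DESeq2 and 4 libraries (0 to 2). Of the endogenous ligands, 1 was higher with limma voom, and 0 were lower with library totals, DESeq2, the replicate block and 4 libraries (0 to 2). Of the other Toll-like receptors, 1 (Tlr7) was higher with no filter, and of the target genes 9 were with 4 libraries (11 to 14 with 1 left out). The cause was not tested. Depth limits the rarer genes: Tlr6 had as few as 18 counts.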
